A study of Mus musculus with 12 samples.

Results

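The circular RNAs (circRNAs) of Reln, Dlc1 and Zeb2 were described in fibrotic mouse liver. A circRNA is a closed loop that forms when splicing joins an exon's end to its own start or to that of an exon upstream, and reads over this back-splice junction count it. Members were the junctions lying inside 1 of these genes in the GENCODE M21 annotation with at least 1 end on an exon boundary of that gene. There were 10 of them among 16445 junctions in the table: 6 in Reln, 2 in Dlc1 and 2 in Zeb2. All 10 had both ends on exon boundaries of their gene. The genes were selected on measured values of these data: the summed Reln level and the levels of 1 junction each of Reln, Dlc1 and Zeb2, compared between the same groups. The differences between groups below are therefore a description and not a test.

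Each of the 12 libraries is the liver of 1 mouse, of a strain labelled C57BL/8 and of an age not used here. In the PZH group 6 mice were given Pien Tze Huang (PZH), a Chinese patent medicine, daily at 25 mg/ml over weeks 2 to 8. They and all Control mice also had 10% carbon tetrachloride (CCl4), a toxin that scars the liver, injected at 10 µl for every 10 g, 2 times weekly over 8 weeks. The 6 Control mice had CCl4 without PZH. Livers of both groups were collected in week 8, and none without CCl4 was analysed here, so PZH was set against injured and not against healthy liver. Levels are in SRPBM, the authors' name for their scaled junction signal, whose formula is not stated in the sources used here.

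Hepatic stellate cells lie between hepatocytes and the sinusoidal endothelium, store vitamin A, and on injury turn into contractile cells that lay down collagen. Reln encodes reelin, a large secreted glycoprotein best known for guiding neurons in the developing brain through the receptors VLDLR and ApoER2 and the adaptor DAB1, and it is also made by stellate cells and by lymphatic endothelium. Dlc1 encodes a GTPase-activating protein of focal adhesions, which loosens actin tension, and its human counterpart is often lost in liver cancer. Zeb2 encodes a zinc finger repressor that binds SMAD proteins and recruits CtBP and the NuRD complex, and it is needed for the identity of Kupffer cells, the macrophages of the liver.

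The 5 junctions on which the values turn are shown by their sequence, read from the GENCODE M21 transcripts (GRCm38, minus strand for all 3 genes). Capitals mark the last bases of the circle's last exon and lower case the first bases of its first exon, so the change of case is the back-splice.
Reln exons 4 to 8, chr5:22128615-22171280: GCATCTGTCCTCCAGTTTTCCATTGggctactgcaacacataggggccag
Reln exons 3 to 8, chr5:22128615-22227660: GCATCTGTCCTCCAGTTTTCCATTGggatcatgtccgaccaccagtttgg
Reln exons 11 to 12, chr5:22060249-22080823: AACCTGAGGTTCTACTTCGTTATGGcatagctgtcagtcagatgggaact
Dlc1 exon 2, chr8:36937560-36938758: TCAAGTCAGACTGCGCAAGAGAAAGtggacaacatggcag
Zeb2 exons 4 to 5, chr2:45017397-45023104: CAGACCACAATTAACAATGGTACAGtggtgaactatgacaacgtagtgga
The first pair of Reln circles shares its capitals, because both close from the end of exon 8, and differs only in the exon they close to. Exon numbers are those of the matching coding transcript with most exons, which has 65 exons for Reln, 18 for Dlc1 and 11 for Zeb2. Only the junction was measured, so which exons between the ends a circle holds is not known.

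Summed circular RNA of Reln was higher in the PZH livers and its groups did not overlap. It was 4.12 SRPBM in the lowest, 8.10 in the median and 11.7 in the highest PZH library. In Control livers it was listed at 0 in 2 libraries, had a median of 0.680 and reached 3.32 SRPBM in Control replicate 4. Every PZH library thus lay above every Control library, and the nearest pair, PZH replicate 6 and Control replicate 4, was 0.804 SRPBM apart. The mean difference was 2.67 on the log2(SRPBM + 0.636) scale, PZH minus Control, or 6.37-fold on that scale, beside SDs between libraries of 0.47 in PZH and 0.98 in Control (n = 6 each). With other pseudocounts it was 3.84 (pseudocount 0.1) and 1.79 (pseudocount 2), so its size rests on how values near 0 are treated. In bulk liver, a change in the number of cells of a type and a change in RNA per cell cannot be told apart.

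**Figure D1:**
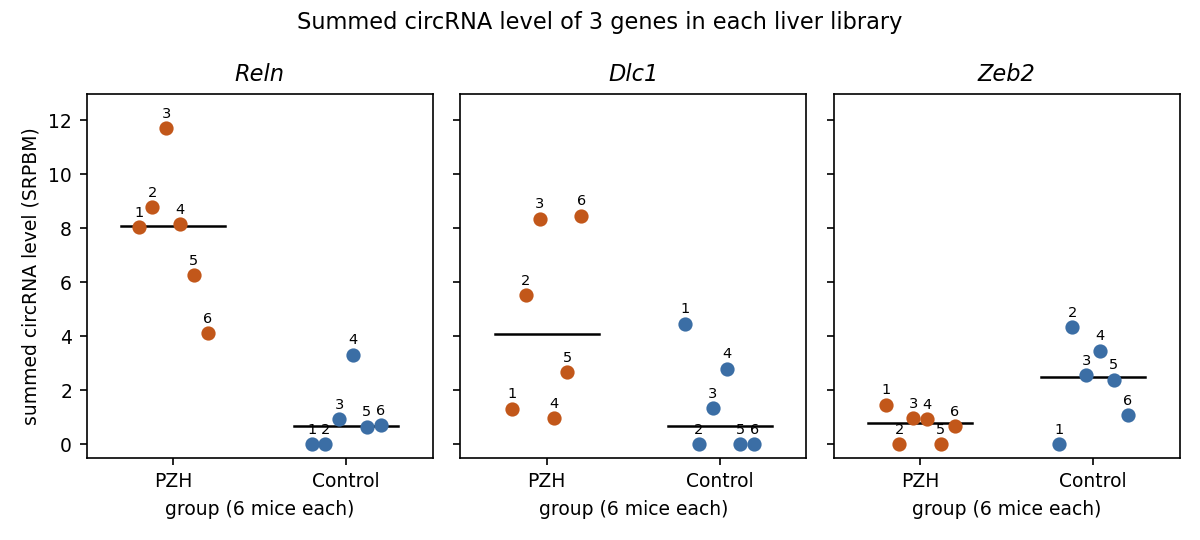
Summed circRNA level in SRPBM (vertical axis) of Reln, Dlc1 and Zeb2 in the 6 PZH and the 6 Control libraries; each point is a library with its replicate number, and the lines are medians. Only for Reln do the groups stand apart, at 4.12 to 11.7 SRPBM in PZH and 0 to 3.32 in Control.

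The Reln sum was the only one of the 3 with no overlap. Of 2205 host genes whose sums were above 0 in at least 6 libraries, 12 (0.544%) had all PZH above all Control libraries and 7 (0.317%) had all PZH below them. Together these are 19 (0.862%). Reln is among the 12, and its log2 difference was the highest of the 2205. As Reln was selected on this sum, its place there is a description. Its level was modest, with a mean of 4.39 SRPBM over the 12 libraries, and 26.7% of all host genes in the table had a higher mean. None of the 3 sums passed an adjusted p of 0.05 in limma over all host genes, and neither did any other host gene (0%), while 181 (8.21%) had an unadjusted p under 0.05, 112 (5.08%) as higher and 69 (3.13%) as lower.

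**Figure D2:**
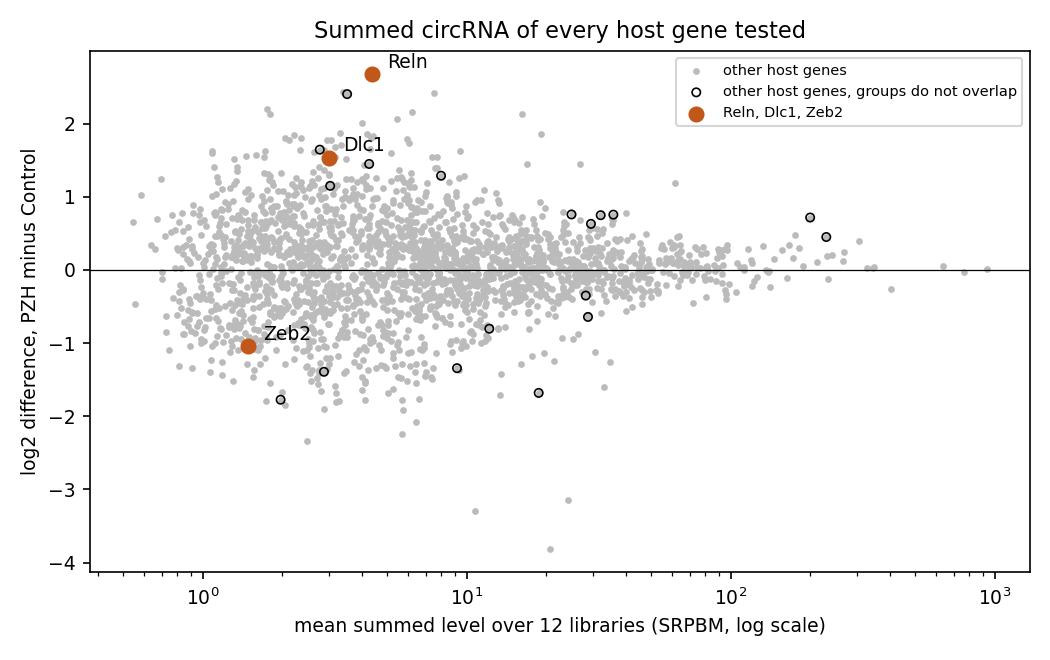
Difference of the mean log2(summed SRPBM + 0.636), PZH minus Control (vertical axis), against the mean summed level over 12 libraries in SRPBM (log scale) for the 2205 host genes tested; open rings mark other host genes whose groups do not overlap. Reln lies at the top at 2.67, Dlc1 at 1.53 and Zeb2 at -1.04.

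Reln made its circles from 6 junctions within exons 3 to 12, in the first part of a gene of 65 exons. The matching protein positions run from residue 114 to residue 482 of 3461, near the amino-terminal end of reelin. All 6 lie in coding sequence, and 13.9% of host genes had more junctions in the table. Exon 8 closed 2 circles, exon 10 closed 2, and exons 3 and 4 each opened 2, so 4 exon ends were used more than once. Exons 4 to 6 lie within 4 of the 6 junctions.

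The circle of exons 4 to 8 was the most abundant, with 38.7% of Reln's signal over the 12 libraries. It was above 0 in 5 PZH libraries, with a median over all 6 of 2.42 SRPBM and a highest value of 5.66 in PZH replicate 4. In Control it was above 0 in 3 libraries, with a median of 0.327 and a highest value of 3.32 SRPBM in replicate 4. The groups overlapped: PZH replicate 5 was listed at 0 and PZH replicate 6 had 0.668 SRPBM, below the highest Control value. This circle spans 42666 bp of genome and 332 bp of annotated exon, flanked by introns of 56244 bp before exon 4 and 22509 bp after exon 8.

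The circle of exons 3 to 8 was listed in PZH livers alone. It was above 0 in 5 PZH libraries, at a median of 2.23 and up to 3.92 SRPBM over the 6, and listed at 0 in all 6 Control libraries. PZH replicate 4, the library with most of the exons 4 to 8 circle, was the PZH library in which it was listed at 0. Of all 16445 junctions, 13 (0.0791%) were above 0 in at least 5 PZH and no Control library and 3 (0.0182%) in at least 5 Control and no PZH library. Many of the 16445 could not qualify, since 44.2% were above 0 in only 1 library. Reln was also selected on this contrast, so the shares only describe the junction. Since the exons 3 to 8 junction was above 0 in 5 libraries, it was below the minimum of 6 for the fit. The junction spans 99046 bp, and only 1.02% of junctions in the table span more. Its annotated exons add up to 468 bp, a multiple of 3, and cover residues 114 to 270. This was the only Reln junction whose exons add up to a multiple of 3.

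The circle of exons 11 to 12 lies apart from the others and shares no end with them. It was above 0 in 4 PZH libraries, with a median over all 6 of 1.12 and a highest value of 3.91 SRPBM in PZH replicate 3. Among Control libraries it was above 0 in replicate 6 alone, at 0.707 SRPBM. Its 298 bp of exon cover residues 383 to 482.

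The other 3 Reln junctions were rare and above 0 in PZH libraries only. The exons 9 to 10 circle (chr5:22103224-22106105) was above 0 in 3 PZH libraries at up to 1.28 SRPBM, the exons 4 to 10 circle (chr5:22103224-22171280) in 2 at up to 2.60 SRPBM, and the exons 3 to 6 circle (chr5:22152408-22227660) in 1 at 1.02 SRPBM. Together, 4 of the 6 Reln junctions were listed in PZH livers only, and none in Control livers only. Over all 16445 junctions, 27.7% were above 0 in PZH only and 25.4% in Control only, and 44.2% were above 0 in 1 library. The junctions in use differed between mice: each PZH library had 3 or 4 of the 6 above 0 and each Control library at most 1.

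**Figure D3:**
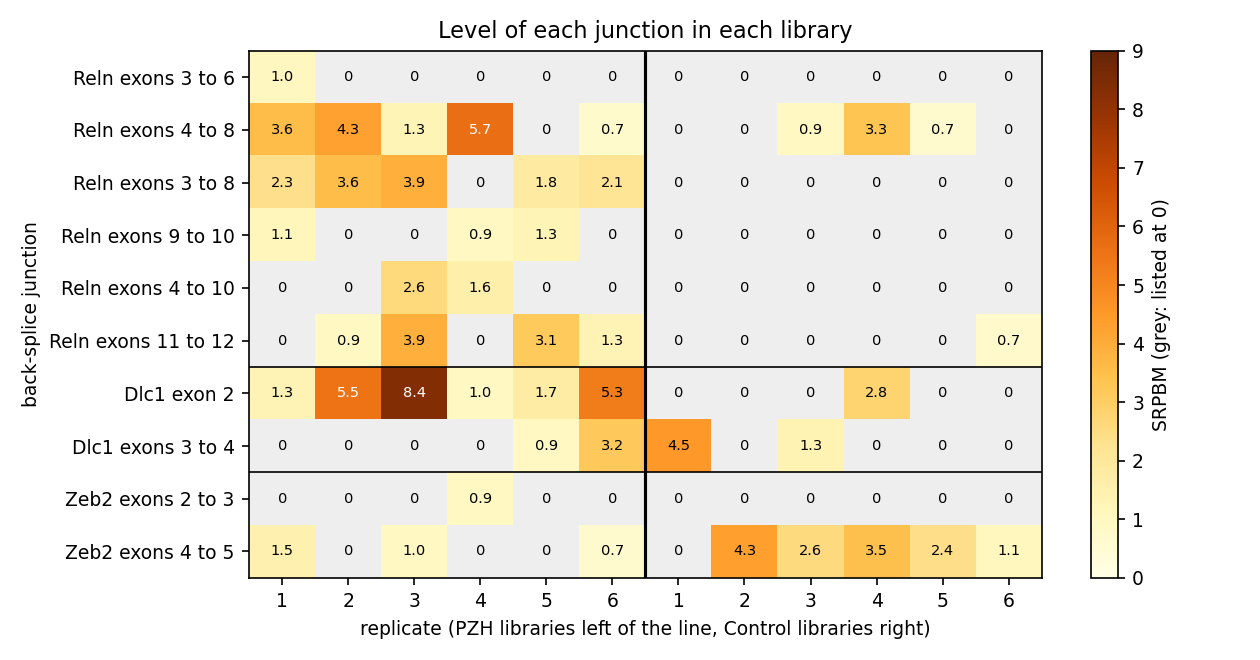
Level in SRPBM (colour and printed value, rounded to 1 decimal) of the 10 junctions (vertical axis) in the 12 libraries (horizontal axis, PZH left and Control right); grey cells are listed at 0. The Reln cells are filled mostly on the PZH side, those of Dlc1 exon 2 in all 6 PZH libraries and 1 Control library, and those of Zeb2 exons 4 to 5 mostly on the Control side.

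Dlc1 had 2 circles with unlike patterns, and its sum overlapped between the groups. The sum was 0.976 SRPBM in the lowest, 4.10 in the median and 8.48 in the highest PZH library. In Control livers it was listed at 0 in 3 libraries, had a median of 0.670 and reached 4.47 SRPBM. Of the PZH libraries, 3 lay above the highest Control library, and replicates 1 and 4 lay near the low end. The log2 difference was 1.53, PZH minus Control, beside SDs of 1.10 in PZH and 1.36 in Control. With the entries at 0 treated as missing it was 0.35.

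Over the 12 libraries the exon 2 circle carried 72.4% of the Dlc1 signal. It was the larger of the 2 circles in PZH livers and the smaller in Control livers. The exon 2 circle was above 0 in all 6 PZH libraries, at 0.976 SRPBM in the lowest, 3.52 in the median and 8.36 in the highest. In Control it was listed at 0 in 5 libraries and at 2.81 SRPBM in replicate 4. The groups overlapped through that library, since 3 PZH libraries lay below it. Among 3870 junctions above 0 in at least 6 libraries, 8 (0.207%), this one included, were above 0 in all 6 PZH and at most 1 Control library. The PZH libraries alone carried this junction over that minimum, and Dlc1 was selected on this contrast, so the share only describes it. The count in the other direction is not given here. This single-exon circle of 1199 bp holds the start of the coding sequence, with 1074 bp of coding sequence for residues 1 to 358 of 1543. Its exon lies between introns of 13362 bp and 79484 bp.

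The circle of exons 3 to 4 (chr8:36850164-36858075) did not follow the exon 2 circle. It was above 0 in 2 PZH libraries at up to 3.19 SRPBM, and in 2 Control libraries at up to 4.47 SRPBM. Summed over the 6 libraries of a group it came to 4.11 SRPBM in PZH and 5.80 in Control, against 23.2 in PZH and 2.81 in Control for exon 2. PZH replicates 5 and 6 were the libraries with both Dlc1 circles above 0, and no Control library had both. Both junctions use exon ends found together in 1 of the 4 coding Dlc1 transcripts, the 18-exon form that encodes the long protein.

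Zeb2 went the other way, with lower values in PZH livers and overlapping groups. Its sum was listed at 0 in 2 PZH libraries, with a median of 0.799 and a highest value of 1.47 SRPBM. In Control it was listed at 0 in replicate 1, with a median of 2.48 and a highest value of 4.33 SRPBM. Of the Control libraries 4 lay above every PZH library, and the other 2 lay among them. The log2 difference was -1.04, PZH minus Control, beside SDs of 0.73 in PZH and 1.09 in Control, and it ranked 125 of 2205 host genes, counted from the lowest.

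Nearly all of it, 94.8%, was the circle of exons 4 to 5. This was above 0 in 3 PZH libraries, with a median over all 6 of 0.333 and a highest value of 1.47 SRPBM. In Control it was above 0 in 5 libraries, with a median of 2.48 and a highest value of 4.33 SRPBM. Its annotated exons add up to 330 bp, a multiple of 3, cover residues 25 to 135 of 1215, and follow an intron of 86911 bp. The ends of this circle are found in 7 of the 17 coding Zeb2 transcripts. The annotated miRNA gene Mir5129 (chr2:45023100-45023177, same strand) overlaps its first exon by a few bases.

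The second Zeb2 circle, of exons 2 to 3 (chr2:45110016-45113092), was listed at 0.932 SRPBM in PZH replicate 4 and at 0 in the other libraries. It holds 73 bp of coding sequence and 339 bp of the 5' UTR. The antisense gene Zeb2os lies across part of its span, and reads of the opposite strands cannot be told apart here, since no strand is stated for the libraries.

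**Figure D4:**
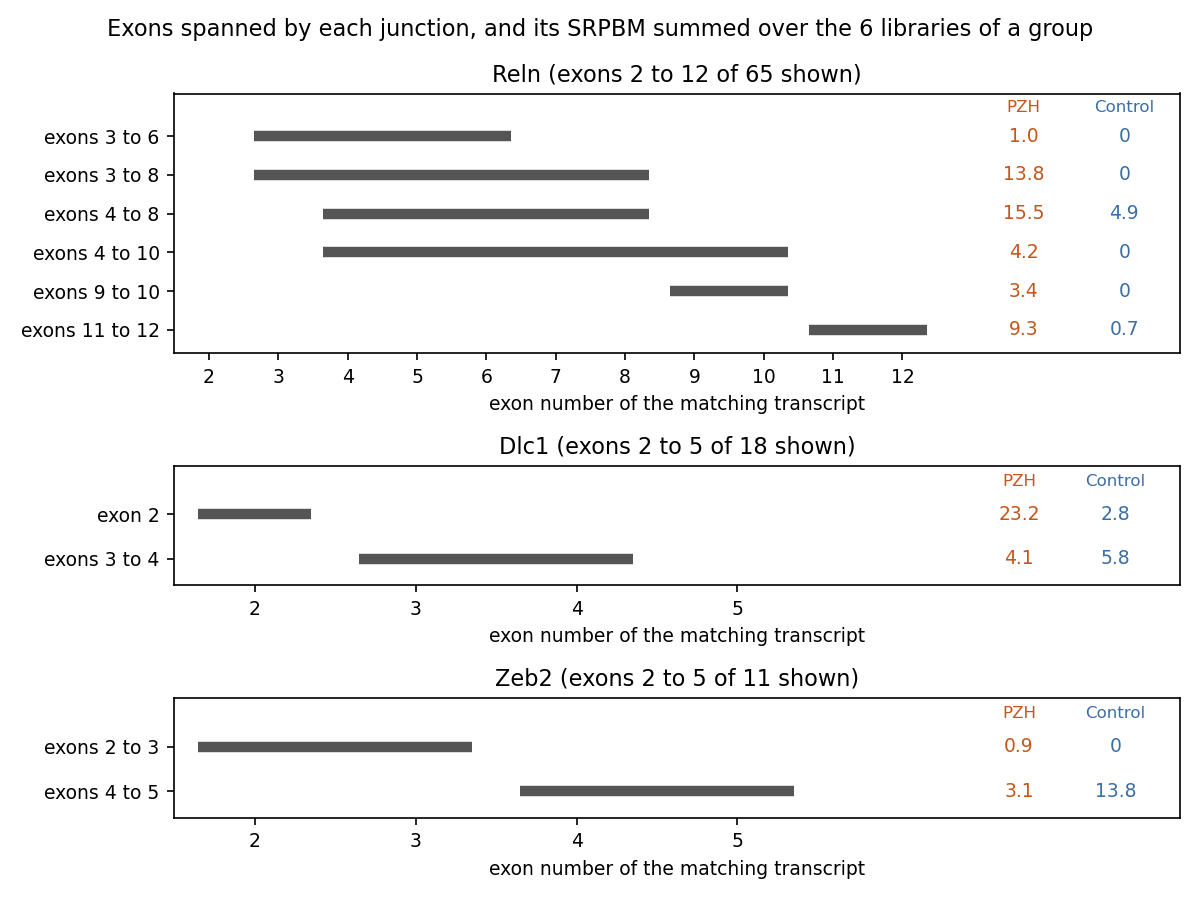
Exons spanned by each junction (horizontal axis, exon number of the matching transcript, not drawn to genomic length), with its SRPBM summed over the 6 libraries of each group at the right. Reln exons 3 to 8 stands at 13.8 in PZH and 0 in Control, Dlc1 exon 2 at 23.2 and 2.81, and Zeb2 exons 4 to 5 at 3.10 and 13.8.

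The order of the 3 genes by their summed level, a quantity that grows with the number of junctions and is not scaled to length, was not the same in both groups. In PZH livers Reln was first (median 8.10 SRPBM), then Dlc1 (4.10) and Zeb2 (0.799). Each neighbouring pair in that order overlapped in range. In Control livers Zeb2 was first (median 2.48 SRPBM), followed by Reln (0.680) and Dlc1 (0.670), and all 3 ranges overlapped. Whether the orders differ was not tested.

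The values rest on few reads. If a library's smallest value stands for 2 read pairs, an assumption that the files do not state, PZH libraries held 92559 to 129699 read pairs at junctions and Control libraries 80442 to 130487. In the same read pairs the Reln sum was 12.4 to 36.4 in PZH and at most 10.0 in Control. The largest single junction value was 26.0, for Dlc1 exon 2 in PZH replicate 3. The Control libraries with Reln listed at 0 held 113738 and 80442 read pairs, and the second of these was the smallest library of all 12. Whether an entry of 0 means absence cannot be told from these values. Entries of 0 also occurred for an abundant Ikzf1 circRNA, at up to 53.5 SRPBM in PZH and 56.7 in Control. It was listed at 0 in 3 PZH libraries and 1 Control library.

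Of the 10 junctions, 3 were above 0 in at least 6 libraries and entered the limma fit over 3870 junctions: Reln exons 4 to 8, Dlc1 exon 2 and Zeb2 exons 4 to 5. None of them passed an adjusted p of 0.05. Among all those tested 2 junctions (0.0517%) passed as higher in PZH and none (0%) as lower, and 292 (7.55%) had an unadjusted p under 0.05, 176 (4.55%) as higher and 116 (3%) as lower. The groups did not overlap for 26 (0.672%), with PZH above Control for 19 (0.491%) and below it for 7 (0.181%), and none of the 3 members was among these.

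Whether these circles come from stellate cells could not be checked against the cells' own markers. Of 50 other genes in a list of stellate and myofibroblast markers, 41 had no junction in the table, among them Lrat, Des, Dcn, Pdgfrb, Colec11, Acta2, Col1a1 and Col1a2. The other 9 had 17 junctions, with a sum of 3.78 to 17.4 SRPBM in PZH (median 8.77) and 4.89 to 11.8 in Control (median 7.91). These ranges overlapped widely, unlike those of Reln. Of the 17 junctions 2 could be tested, 1 with a higher and 1 with a lower mean log2 level in PZH. None passed in limma, nor had either an unadjusted p under 0.05. The one lower in PZH was that of Abcc9, the SUR2 subunit of a potassium channel of mural cells. It reached 2.13 SRPBM in PZH, with 2 libraries above 0, and 3.06 in Control, with 4 above 0. Beside these, the mean sum over 12 libraries was 4.39 SRPBM for Reln, 2.99 for Dlc1 and 1.49 for Zeb2.

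Markers of other liver cell types also had overlapping sums in the groups. The sum over 22 endothelial genes was 90.8 to 118 SRPBM in PZH (median 105) and 88.4 to 150.4 in Control (median 103). The lymphatic markers Lyve1, Flt4 and Pdpn had no junction. Prox1, also of the endothelial list, had a mean summed level of 2.63 SRPBM over the 12 libraries. Which cells the Prox1 signal came from was not tested, so it is no measure of lymphatic endothelium. The log2 difference of Prox1 was -0.64, PZH minus Control, and its groups overlapped. The sum over 22 macrophage and immune genes was 116 to 203 SRPBM in PZH (median 177) and 99.8 to 201 in Control (median 173). The Kupffer cell markers Clec4f, Vsig4, Cd5l and Timd4 had no junction. For cholangiocyte genes it was 4.50 to 15.2 SRPBM in PZH and 1.75 to 16.5 in Control, from 5 genes. Hepatocyte genes, 26 of 33 with junctions, gave 513 to 679.6 SRPBM in PZH and 466 to 673 in Control, so the labelled tissue showed its main cell type. Each of these ranges overlapped between the groups, and the part of any cell type in the Reln, Dlc1 or Zeb2 values was not tested.

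**Figure D5:**
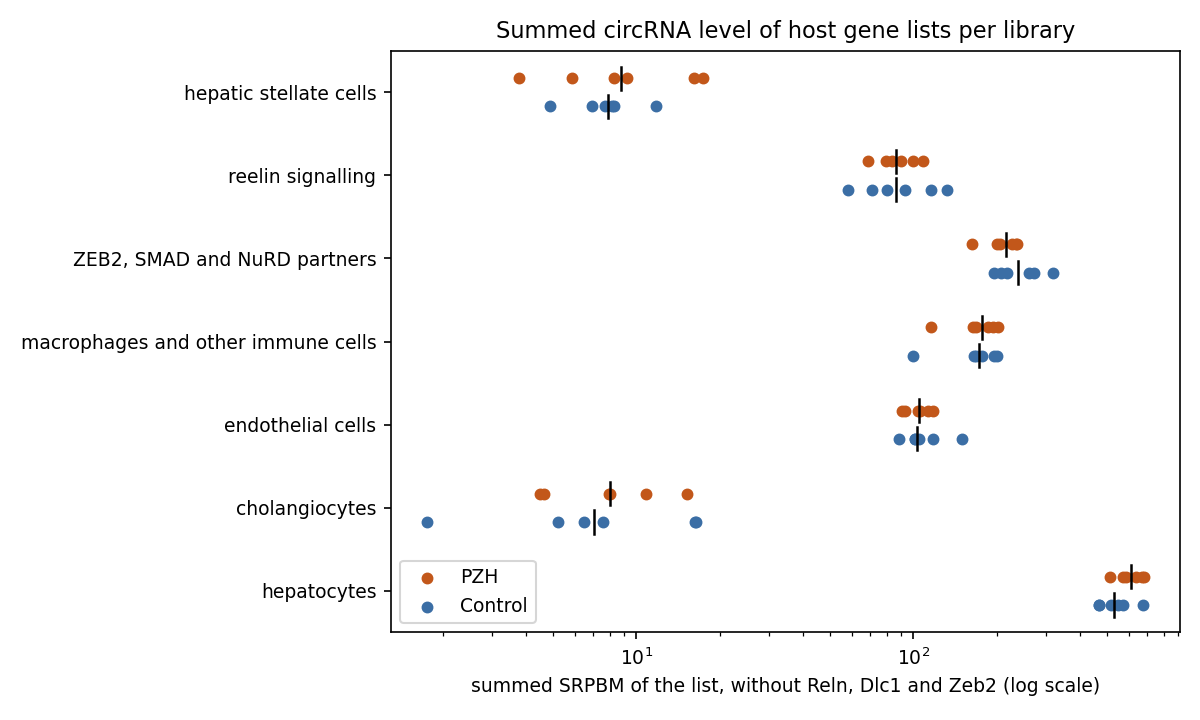
Summed SRPBM (log scale) of the junctions of 7 host gene lists in each library, without Reln, Dlc1 and Zeb2; points are the 6 PZH and 6 Control libraries and bars are medians. The groups overlap for every list shown, and the stellate list has medians of 8.77 SRPBM in PZH and 7.91 in Control, against 105 in PZH and 103 in Control for the endothelial list.

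Single circRNAs of those cell type lists did not pass either. Of 12 endothelial circRNAs tested, limma called none, and 2 had an unadjusted p under 0.05, both lower in PZH. The circRNA of Plxnd1, a semaphorin receptor, was above 0 in 2 PZH and 5 Control libraries (log2 difference -2.24, SE 0.86, adjusted p = 0.566), and the most abundant, of the mannose receptor gene Mrc1, had a mean ± SD of 61.7 ± 6.39 SRPBM over 6 PZH and 58.4 ± 8.55 over 6 Control libraries. Of 17 macrophage and immune circRNAs none passed and 2 had an unadjusted p under 0.05, both higher in PZH. That of Adgre1, the F4/80 antigen, was above 0 in 6 PZH and 2 Control libraries (log2 difference 1.52, SE 0.61, adjusted p = 0.567 in limma). The most abundant of the 17, of Ikzf1, went the other way. It was above 0 in 3 PZH and 5 Control libraries (log2 difference -2.10, SE 1.22, adjusted p = 0.705 in limma). The 1 cholangiocyte circRNA tested, of the fibrocystin gene Pkhd1, was above 0 in 6 PZH and 5 Control libraries and was not called. Of 32 hepatocyte circRNAs none passed, 4 had an unadjusted p under 0.05 as higher and 1 as lower. Their examples were Mlxipl, the ChREBP gene (171 ± 12.2 SRPBM in PZH, 133 ± 23.7 in Control), and Aass of lysine breakdown (45.7 ± 16.1 in PZH, 25.9 ± 4.32 in Control). The median log2 differences of the tested circRNAs were -0.14 for endothelial, 0.22 for macrophage and 0.25 for hepatocyte genes, beside 0.06 for all 3870.

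The receptors of reelin had no circle in the table. Of 27 other genes of the pathway 12 had no junction, including the receptor genes Vldlr and Lrp8 (ApoER2) and the adaptor Dab1. The other 15 summed to 68.4 to 108 SRPBM in PZH (median 86.7) and 58.3 to 132 in Control (median 86.9). Of their 14 tested circRNAs limma called none, and 1 had an unadjusted p under 0.05, that of Dock1, an activator of Rac (above 0 in 2 PZH and 5 Control libraries, log2 difference -1.89, SE 0.79, adjusted p = 0.578). The most abundant came from Pik3r1, the regulatory subunit of PI3-kinase, with a mean ± SD of 23.0 ± 5.29 SRPBM over 6 PZH and 26.9 ± 5.33 over 6 Control libraries. Their median log2 difference was -0.01.

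Around Zeb2, 30 of 47 other genes of SMAD signalling, CtBP and NuRD had junctions, summing to 162 to 237 SRPBM in PZH and 195 to 319 in Control. Of 25 tested circRNAs limma called none, 1 had an unadjusted p under 0.05 as higher and 2 as lower, and the median log2 difference was -0.04. The most abundant came from Smad1, a SMAD of BMP signalling, at 27.2 ± 4.98 SRPBM over 6 PZH and 37.5 ± 5.38 over 6 Control libraries (mean ± SD, log2 difference -0.46, SE 0.17, adjusted p = 0.551 in limma). The lowest p belonged to Nedd4l, a ubiquitin ligase that acts on SMADs, above 0 in 1 PZH library at 40.2 SRPBM and in 5 Control libraries at up to 52.6 (adjusted p = 0.363 in limma).

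The host genes most like each of the 3 were found by ranking the 12 libraries by summed level and averaging the difference in rank, over 2202 other host genes. As the 3 genes were picked for their difference between the groups, their order of libraries carries that choice, and the measure is given with no test. It compares ranks and not the size of a difference. For Reln they were Ttc3 (mean rank difference 1.08), Sec24a (1.25) and Fancl (1.42), against a median of 3.83 over all hosts. Ttc3 had 23.2 to 38.4 SRPBM in PZH (median 28.1) and 13.3 to 29.7 in Control (median 16.6). For Dlc1 they were Stip1 (1), St13 and Kdm4c (1.17 each). Stip1 had a median of 17.9 SRPBM in PZH and 14.9 in Control, and a log2 difference of 0.24 beside 1.53 for Dlc1. For Zeb2 they were Pnpla3 (1.08), Rcor1 (1.33) and Dgkd (1.83). Pnpla3 was above 0 in 3 PZH and 5 Control libraries, at up to 1.86 SRPBM in PZH and 3.02 in Control. Between the 3 genes themselves the mean rank difference was 2.67 for Reln and Dlc1, 5 for Reln and Zeb2 and 5.5 for Dlc1 and Zeb2, so Zeb2 ordered the libraries least like the other two.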

How the data were processed

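Liver circRNA was analysed from 1 table of 16445 back-splice junctions in 12 libraries. The deposited values are a signal named SRPBM by the authors. Trim Galore, STAR and the assembly GRCm38 (mm10) are named in the submitters' processing notes. For their versions, and for the circRNA caller, its filters and the SRPBM formula: not given in the sources used here. Depth is known only through the table: junctions summed to 31472 to 41080 SRPBM in PZH and 28922 to 40927 in Control.

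Hosts were assigned from GENCODE M21 (same assembly): both ends lay on boundaries of exons of a single gene for 15737 junctions. Values were not whole reads, so no count model was used. Junctions and host sums above 0 in at least 6 libraries were tested on log2(SRPBM + 0.636), the median of the libraries' smallest values, with limma 3.58.1 (variance trend, 2-sided, Benjamini-Hochberg, threshold 0.05) in R 4.3.3. Fold changes on this scale understate those of low values. The fit was tested on simulated, normally spread data with 200 of 3870 circRNAs changed. It recovered 11 of the 200 at a log2 change of 1, with 1 false call. At a log2 change of 2 it recovered 103, with 7 false calls. A circRNA that was not called may therefore still differ. Python 3.11.15, pandas 2.3.3 and matplotlib 3.10.9 were used.

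The members and lists were chosen with earlier results of these data known. Junctions above 0 in at least 4 libraries were described in full. Of each list the circRNA with the highest mean and that with the smallest p were named, and 3 host genes of like pattern per gene; 1 list and 1 named circRNA are not reported here. The labels speak of 6 mice in each group, and p-values measure the spread between these libraries. Other scalings, filters, pseudocounts, zeros as missing, a replicate block and single libraries left out were tried.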

Additional observations from a re-analysis of the deposited data

Results flagged for a closer look

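In 7 of 33 groups of 6 values with any spread, the farthest library lay apart from its nearest neighbour by more than Dixon's limit for 6 values. The limit gives about 5% by chance for independent, normally spread values. Many values here are 0, and a single library above 0 always exceeds the limit, so the 7 cannot be set against that 5%. The flags of the Reln sum and of Reln exons 4 to 8 rest on the same value. Control replicate 4 was the highest Control library for the Reln sum (3.32 SRPBM, next 0.942), for Reln exons 4 to 8 (3.32) and for Dlc1 exon 2 (2.81, the others listed at 0). Control replicate 6 was the one Control library above 0 for Reln exons 11 to 12 (0.707). For Dlc1 exons 3 to 4, PZH replicate 6 (3.19, next 0.924) and Control replicate 1 (4.47, next 1.34) stood apart. The summed macrophage and immune list was lowest in Control replicate 6 (99.8 SRPBM, next 166).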

How the results depend on the processing

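The log2 differences of the 3 sums kept their sign in every alternative run. Leaving out 1 library each gave 2.47 to 3.00 for Reln, 1.30 to 1.90 for Dlc1 and -1.43 to -0.84 for Zeb2, and the Reln groups did not overlap in any of these. The Reln difference was 3.84 with a pseudocount of 0.1 and 1.79 with 2, that of Dlc1 2.74 and 0.92, and that of Zeb2 -1.64 and -0.62. Same-numbered libraries had correlations of -0.0464 to 0.0163 between their deviations from the group means. These correlations show no pairing by number, but cannot tell whether same-numbered mice shared something else. Each number has 1 library in each group, so a replicate block cannot change a mean difference. With it the 3 differences were therefore the same, at 2.67, 1.53 and -1.04.

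Of all junctions limma called 2. It called 1 with a pseudocount of 2 or with the replicate block, 30 with no filter, 10 among those above 0 in all 12 libraries, 12 with zeros as missing, and 1 to 3 without 1 library (1 without PZH replicate 2, 4 or 6 or Control replicate 2, 3, 4, 5 or 6). Of host sums it called 0. It called 1 with a pseudocount of 2, among sums above 0 in all 12 libraries, with median-of-ratios scaling or with scaling by summed SRPBM, 2 with the replicate block or zeros as missing, 6 with no filter, and 0 to 3 without 1 library (3 without PZH replicate 5, 1 without PZH replicate 3 or Control replicate 6). List calls were 0. With no filter there was 1 each for the ZEB2, macrophage and hepatocyte lists, and 1 for hepatocytes among junctions in all 12 libraries or with zeros as missing. Without 1 library the ZEB2 list had 0 to 1, with the call made without Control replicate 1. The Pkhd1 difference (0.18) was -0.33 with zeros as missing or without Control replicate 5, in a range of -0.33 to 0.48 without 1 library. Without 1 library the list medians ranged from -0.24 to 1.03 for stellate, -0.27 to 0.19 for reelin, -0.16 to 0.06 for ZEB2 and -0.20 to 0.02 for endothelial genes, so their signs are not stable. The stellate median came from 2 circRNAs, or from 1 without PZH replicate 2 or 3 or Control replicate 2, 3, 4 or 6. For the other lists the cause was not tested.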
